A study of Capra hircus with 18 samples.

Results

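The genes described here are the Toll-like receptors *TLR2*, *TLR4* and *TLR7* and the co-receptor *CD14*, chosen by their gene names in the deposited tables of goat blood. All 4 were among the 1247 genes of the table that sets goats transported for 180 min against control goats. *TLR4* was also among the 430 genes of the table that sets goats transported for 30 min against control. The tables hold 1557 different genes in all. Every gene in them has an unadjusted p under 0.05 in the authors' own test of that comparison, a limit read from the files and not the rule on q-values and fold change in the study's methods, so the genes had been chosen on the same goats that are tested again here. *TLR2*, *TLR7* and *CD14* in the 30 min goats were not analysed here.

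The goats were uncastrated Spanish males, 8 months old, and feed had been withheld from all of them overnight. The control group of 7 goats stayed in pens, 4 goats travelled by trailer for 30 min over about 50 km, and 7 goats travelled for 180 min over about 200 km. Blood was drawn after the treatment into tubes that stabilise RNA, globin mRNA was removed, and 1 library per goat was sequenced. Goats are called by their number in the labels. Both comparisons share the 7 control goats. The labels do not give the day of transport, so the spread between goats may include a difference between days.

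Toll-like receptors are membrane proteins of innate immune cells that recognise conserved molecules of microbes and some molecules released by damaged cells. TLR2 recognises bacterial lipoproteins, TLR4 recognises lipopolysaccharide together with the protein MD-2, and TLR7 recognises single-stranded RNA inside endosomes. CD14, abundant on monocytes and present at lower levels on neutrophils, binds lipopolysaccharide and hands it to TLR4, and it also assists TLR2 and TLR7. The receptors signal through adaptors such as MyD88 and TIRAP to mitogen-activated kinases, NF-kappaB and interferon regulatory factors, and inhibitors such as IkB-alpha and the SOCS proteins limit the response.

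In the deposited annotation *TLR2* (ENSCHIG00000025899) lies on the plus strand of chromosome 17 from 66837333 to 66867720. *TLR4* (ENSCHIG00000018498) lies on the plus strand of chromosome 8 from 106716079 to 106726290. *CD14* (ENSCHIG00000011350) lies on the plus strand of chromosome 7 from 58732435 to 58733556. *TLR7* (ENSCHIG00000021012) lies on the minus strand of a sequence without a chromosome number, from 50699914 to 50718667. All are annotated as protein coding, and the genome build of these positions is not given in the sources used here. In the RefSeq annotation of the goat assembly ARS1.2, 0 other genes overlapped any of the 4.

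The effective library size, recovered from the deposited FPKM and counts, ranged from 10443023 to 39473244 in the control goats, from 13992574 to 22855051 in the 30 min goats and from 11290309 to 34125715 in the 180 min goats. Goat 10 had the smallest library of the 180 min group, and 26.2% of its reads fell on the listed genes, against 7.93% to 14.3% in the other 180 min goats. Differences and correlations whose call changed, or whose value moved by over 1.5 times, without goat 10 are given both ways.

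*TLR4*, the lipopolysaccharide receptor, was the only member listed in both comparisons. Levels are given as normalized counts, which are read counts divided by a size factor for each goat. After 30 min of transport *TLR4* was at 951 in goat 21, 1155 in goat 22, 1246 in goat 24 and 1386 in goat 27. The control goats ranged from 554 to 1043 (median 611). Of the 4 values of the 30 min group 3 lay above every control goat, and goat 21 lay below the highest control goat, which was goat 3. Groups were free of overlap in 8.14% of the genes of that table. The means were 1185 ± 182 (SD, n = 4) and 707 ± 184 (SD, n = 7), a fold of 1.68.

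On the scale of log2(normalized count + 1), *TLR4* was 0.77 higher after 30 min (SE 0.26, 95% confidence interval 0.20 to 1.34). The exact two-sided permutation test over 330 splits of the goats gave p = 0.00909, where the smallest p it can give is 0.00303, and 46.7% of the listed genes had an exact p under 0.05. In limma, fitted over all 430 genes, the unadjusted p was 0.0126 and the adjusted p was 0.101, so *TLR4* was not called at 0.05. Only 2.09% of all genes in that table were called by the same rule, and 46% had an unadjusted limma p under 0.05. The exact p was under 0.05 in all 11 fits that left out 1 goat. The limma adjusted p was under 0.05 in 0 of those 11 fits. Of 9 other settings 3 called *TLR4*, namely FPKM and centring in limma, and DESeq2 by its own test. Centring each goat on the median level of its listed genes gave a difference of 1.46, and it also moved the median difference of the whole table from -0.92 to -0.23. Of the 430 listed genes, 303 were lower after transport.

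After 180 min *TLR4* rose. The transported goats ranged from 669 to 3952 (median 1470) and the control goats from 581 to 1094 (median 732). Of the 7 transported goats 6 lay above every control goat, and goat 10, at 669, lay within the control range. The means were 1935 ± 1171 and 791 ± 213 (SD, n = 7 each), a fold of 2.45.

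The log2 difference of *TLR4* after 180 min was 1.12 (SE 0.36, 95% confidence interval 0.34 to 1.90). In limma over all 1247 genes the adjusted p was 0.0470, and 23.7% of the genes in the table were called by that rule, with 16.6% of the table higher and 7.14% lower. That split, 207 higher and 89 lower, kept its direction on FPKM (345 and 148) and in edgeR with the deposited size factors (456 and 211). It turned to 148 and 223 with centring on the median of the listed genes, and to 140 and 363 in edgeR with TMM and 181 and 450 in DESeq2, where the test changed as well as the scaling. The exact permutation p over 3432 splits was 0.00758, and 64% of the listed genes had an exact p under 0.05. When 1 goat was left out in turn the exact p stayed between 0.000583 and 0.0175, whereas the limma adjusted p of *TLR4* ran from 0.0289 to 0.0778 and was under 0.05 in 3 of the 14 fits, those without goat 10, goat 13 or control goat 3. The call in limma therefore depended on each of the other 11 goats. Of 9 other settings 6 called *TLR4*. The call was lost with a pseudocount of 0.1 (difference 1.12), with centring (0.93) and in edgeR with TMM (0.83).

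Size factors were not shared between the tables, and the transported groups were therefore set against each other on FPKM, which counts reads per length of gene and per library and was equal for the control goats in both tables. *TLR4* was at 31.0 ± 17.4 FPKM (SD, n = 7) after 180 min and at 21.5 ± 3.26 FPKM (SD, n = 4) after 30 min. Of the 180 min goats 4 lay above the highest 30 min goat, at 24.9, and goat 10 lay below the lowest, at 17.3. The difference on log2(FPKM + 1) was 0.34 with an exact permutation p of 0.397, so a difference in *TLR4* between the 30 and 180 min groups was not detectable beyond the spread of these goats. The value itself turned on single goats, at 0.55 without goat 10 (exact permutation p = 0.138), 0.16 without goat 15 and 0.20 without goat 16. Of the 120 genes listed in both tables, 4.17% had an exact p under 0.05 in that comparison.

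*TLR2*, the lipoprotein receptor, was the member whose difference after 180 min passed neither test. It ranged from 523 to 4889 (median 2136) after 180 min and from 615 to 2170 (median 1620) in control goats. Goats 14, 15 and 16 stood at 4889, 4881 and 4679, above every control goat, while goat 10, at 523, stood below every control goat. The means were 2889 ± 1869 and 1474 ± 573 (SD, n = 7 each), a fold of 1.96.

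The log2 difference of *TLR2* was 0.73 (SE 0.50, 95% confidence interval -0.34 to 1.81), with a limma adjusted p of 0.180 and an exact permutation p of 0.198. Without goat 10 the difference was 1.08, the exact permutation p was 0.0344 and the limma adjusted p was 0.0610. Among the 14 fits that left out 1 goat, only the one without goat 10 had an exact p under 0.05.

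*TLR7*, the endosomal receptor of single-stranded RNA, ranged from 1076 to 2983 (median 1774) after 180 min and from 585 to 1530 (median 1035) in control goats. All 7 transported goats lay above the control median and 5 lay above every control goat. Goat 13, at 1076, and goat 17, at 1190, were the lowest of the transported goats. The means were 1957 ± 758 and 1097 ± 359 (SD, n = 7 each), a fold of 1.78.

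The log2 difference of *TLR7* was 0.81 (SE 0.31, 95% confidence interval 0.14 to 1.48). The exact permutation p was 0.0198 and was under 0.05 in all 14 fits that left out 1 goat, with a range of 0.00932 to 0.0390. The limma adjusted p was 0.0598, so *TLR7* was not called over the table, and it was under 0.05 in 1 of those 14 fits, the one without goat 13. In edgeR with TMM over the listed genes the difference of *TLR7* was 0.32 (adjusted p = 0.402), and in DESeq2 it was 0.40 (adjusted p = 0.254).

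*CD14*, the co-receptor, ranged from 1020 to 10359 (median 3736) after 180 min and from 444 to 3179 (median 2022) in control goats. Goats 15 and 16 stood at 10253 and 10359, and goats 11 and 14 at 3736 and 4909, all above the highest control goat. Goat 13, at 1020, stood below the control median. The means were 5000 ± 3824 and 1710 ± 1002 (SD, n = 7 each), a fold of 2.92, which was the largest fold of means among the 4 genes and had the widest interval.

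The log2 difference of *CD14* was 1.43 (SE 0.58, 95% confidence interval 0.19 to 2.67), with an exact permutation p of 0.0361 and a limma adjusted p of 0.0647. The exact p was under 0.05 in 7 of the 14 fits that left out 1 goat and ranged from 0.0105 to 0.0746. It was above 0.05 when any 1 was left out of the transported goats 11, 14, 15 and 16 or of the control goats 1, 8 and 9. Among those 14 fits the limma adjusted p was under 0.05 only without goat 13, at 0.0414, where the difference was 1.74.

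**Figure D1:**
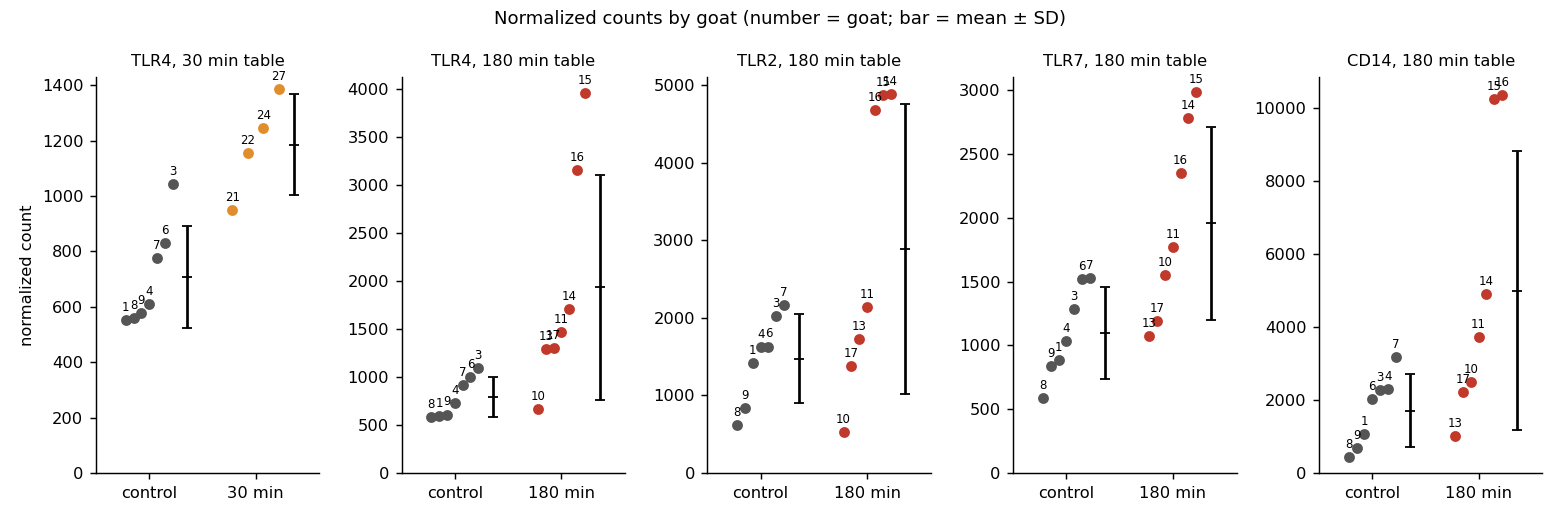
Normalized count of each gene on a linear axis, with a numbered point for each goat, sorted by value within its group, and a bar for the group mean ± SD. Transported and control goats overlap in every panel, and goats 14, 15 and 16 lie above all control goats in each gene of the 180 min comparison.

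**Figure D2:**
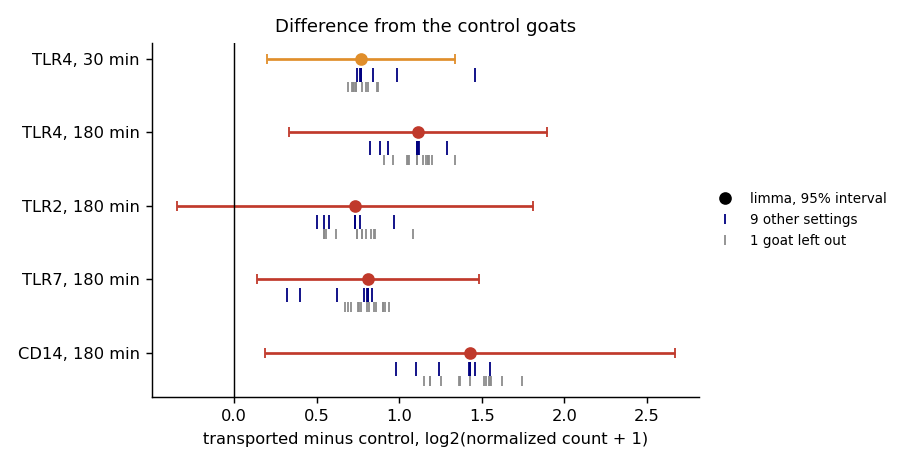
Log2 difference between transported and control goats, with a point and 95% confidence interval from limma on log2(normalized count + 1), blue ticks for the 9 other settings, each on its own log2 scale, and grey ticks for fits that left out 1 goat. The interval of *TLR2* runs from -0.34 to 1.81 and includes 0, the other intervals lie above 0, and every tick lies above 0.

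All 4 genes had a positive difference after 180 min, as had 741 of the 1247 listed genes, and the median difference over all listed genes was 0.68. The differences of the 4 stayed positive under every scaling tried. Of the 4, *TLR4* was called by limma on log2(normalized count + 1). That call was kept in 6 of 9 other settings but in only 3 of the 14 fits that left out 1 goat. In none of the 4 genes were the groups free of overlap, which held for 3.05% of the listed genes. Goats 14, 15 and 16 lay above every control goat in all 4 genes, goat 11 in 3, and goats 10, 13 and 17 in 1 each. Among the control goats, goat 8 was the lowest in *TLR2*, *TLR4*, *TLR7* and *CD14* alike.

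Between genes, levels were compared on FPKM. In the control goats *CD14* was at 70.9 ± 39.3 FPKM, *TLR2* at 21.1 ± 7.80, *TLR4* at 12.4 ± 3.20 and *TLR7* at 8.94 ± 2.62 (SD, n = 7 each). After 180 min the FPKM levels were 213 ± 156 for *CD14*, 41.9 ± 25.1 for *TLR2*, 31.0 ± 17.4 for *TLR4* and 16.4 ± 5.41 for *TLR7* (SD, n = 7 each). The order of the means was thus *CD14*, *TLR2*, *TLR4* and *TLR7* in both groups.

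*CD14* was above each receptor in 7 of 7 goats of both groups. *TLR2* was above *TLR4* in 6 of 7 control goats and in 5 of 7 transported goats, and *TLR4* was above *TLR7* in 7 and 6 of 7. Neighbours in the order were not separated by their spread over goats, since the ranges of *CD14* and *TLR2*, of *TLR2* and *TLR4* and of *TLR4* and *TLR7* overlapped in both groups.

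**Figure D3:**
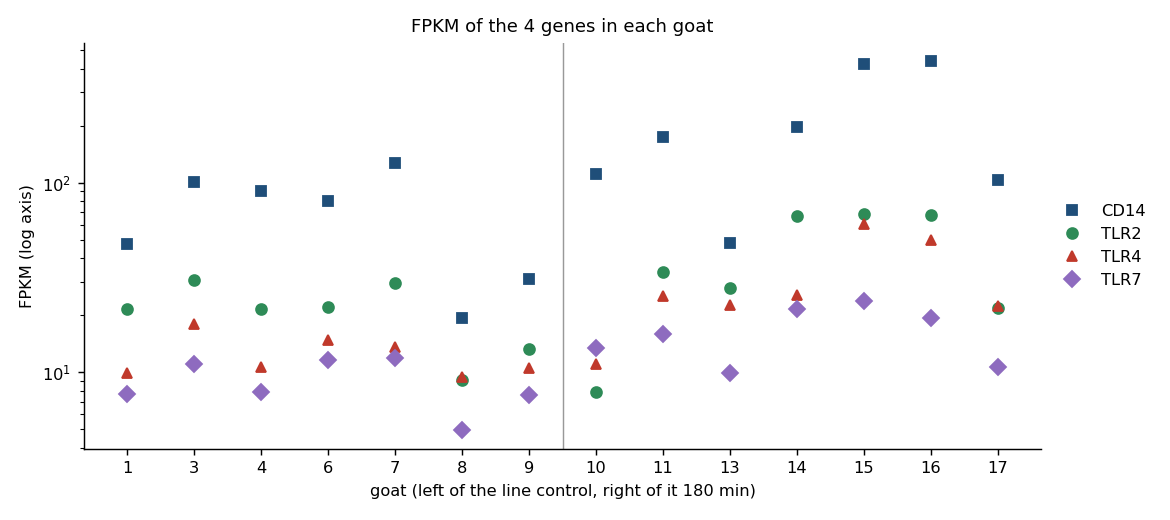
FPKM of the 4 genes on a log axis, with 1 column for each goat, control goats left of the line and 180 min goats right of it, and a symbol for each gene. *CD14* is the highest of the 4 in every control goat and in every goat transported for 180 min.

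The ratio of FPKM between genes of the same goat, a measure chosen after the values had been seen, was compared between the 180 min and control goats for 6 pairs. The median ratio of *CD14* to *TLR2* was 5.14 after 180 min and 3.31 in control goats (exact permutation p = 0.101). The median ratio of *CD14* to *TLR4* was 6.97 and 5.42 (exact p = 0.454), and that of *CD14* to *TLR7* was 9.65 and 6.87 (exact p = 0.115). The smallest p adjusted over the 6 exact tests was 0.344, so no ratio differed detectably with 7 goats a group.

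Single transported goats differed widely in these ratios. The ratio of *CD14* to *TLR2* was 14.02 in goat 10 and 1.73 in goat 13, against 2.12 to 4.31 over the control goats. The ratio of *CD14* to *TLR7* reached 22.7 in goat 16, against 3.91 to 11.5 over the control goats. Goat 10 had less *TLR2* than *TLR4*, at a ratio of 0.715.

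The covariation of the receptors with *CD14* was measured within each group, over 7 goats, on log2(normalized count + 1). There were 12 correlations in the family, and each p came from an exact permutation test over 5040 pairings. In the control goats *CD14* and *TLR2* had a Pearson r of 0.97 (exact p = 0.000794, adjusted 0.00952) and a Spearman rho of 0.89 (exact p = 0.0123). For *CD14* and *TLR7* the control r was 0.92 (exact p = 0.00397, adjusted 0.0119) and rho was 0.86 (exact p = 0.0238). For *CD14* and *TLR4* r was 0.81 (exact p = 0.0421, adjusted 0.0561) and rho was 0.68 (exact p = 0.110). Among control goats, then, the goats with more *CD14* had more *TLR2* and *TLR7*, and the relation with *TLR4* did not pass the adjustment.

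Goats 8 and 9 had the lowest *CD14* of the control group and were farthest from its median. Without both, the control r with *CD14* was 0.85 for *TLR2*, 0.75 for *TLR7* and 0.68 for *TLR4*. Over 5 goats the smallest exact p is 0.00833 before adjustment over the 12, so whether these pass is not read. With 1 control goat left out at a time, r of *CD14* and *TLR2* stayed between 0.94 and 0.99 and passed each time. For *CD14* and *TLR7* it did not pass without goat 8, at r = 0.84 (exact p = 0.0389, adjusted 0.0667).

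In the 180 min goats the strongest relation of *CD14* was with *TLR7*, at r = 0.91 (exact p = 0.00714, adjusted 0.0171) and rho = 0.89 (exact p = 0.0123). For *CD14* and *TLR4* r was 0.78 (exact p = 0.0361, adjusted 0.0542) and rho was 0.86 (exact p = 0.0238). For *CD14* and *TLR2* r was 0.69 (exact p = 0.0821, adjusted 0.0867) and rho was 0.71 (exact p = 0.0881). Without goats 13 and 16, the farthest from the median of *CD14*, r was 0.92 with *TLR7*, 0.90 with *TLR4* and 0.81 with *TLR2*. Without goat 10 alone, r of *CD14* was 0.88 with *TLR4*, which passed (exact p = 0.0139, adjusted 0.0278), and 0.85 with *TLR2*, which did not (exact p = 0.0417, adjusted 0.0505). The relation with *TLR4* also passed without goat 13, at 0.92 (exact p = 0.0125, adjusted 0.0250), and that with *TLR7* did not pass without goat 11 (0.91) or goat 13 (0.86). Whether a correlation differed between the control and 180 min groups was not tested.

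Among the receptors, *TLR2* and *TLR4* had r = 0.90 in the 180 min goats (exact p = 0.00238, adjusted 0.0103) and r = 0.79 in the control goats (exact p = 0.0302, adjusted 0.0517). Without goat 10 the 180 min r of *TLR2* and *TLR4* was 0.80 and no longer passed (adjusted exact p = 0.0545). *TLR2* and *TLR7* had r = 0.90 in the control goats (exact p = 0.00258, adjusted 0.0103) and 0.73 in the 180 min goats (exact p = 0.0569, adjusted 0.0683). Without goat 10 the 180 min r of *TLR2* and *TLR7* was 0.95 and passed (exact p = 0.0111, adjusted 0.0276), and the control r did not pass without goat 8, at 0.78. *TLR4* and *TLR7* had r = 0.88 in the control goats (exact p = 0.0115, adjusted 0.0230) and 0.69 in the 180 min goats (exact p = 0.0867, adjusted 0.0867), and the control r did not pass without goat 4, 6 or 8. All 12 coefficients were positive.

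Other listed genes shared these libraries and gave a scale for the coefficients. Over the 846 listed genes whose normalized counts averaged 50 or more, the median r with *CD14* was -0.12 in the control goats and 0.05 in the 180 min goats. In the control goats 99.5% of the genes had a lower r with *CD14* than *TLR2* had, 98.2% a lower r than *TLR7* and 94.1% a lower r than *TLR4*. In the 180 min goats the shares were 82.7% for *TLR2*, 97.4% for *TLR7* and 88.5% for *TLR4*. The 846 come from a table chosen for differences in both directions, 741 genes higher and 506 lower after 180 min. The medians and shares depend on that mix and do not describe blood genes at large.

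**Figure D4:**
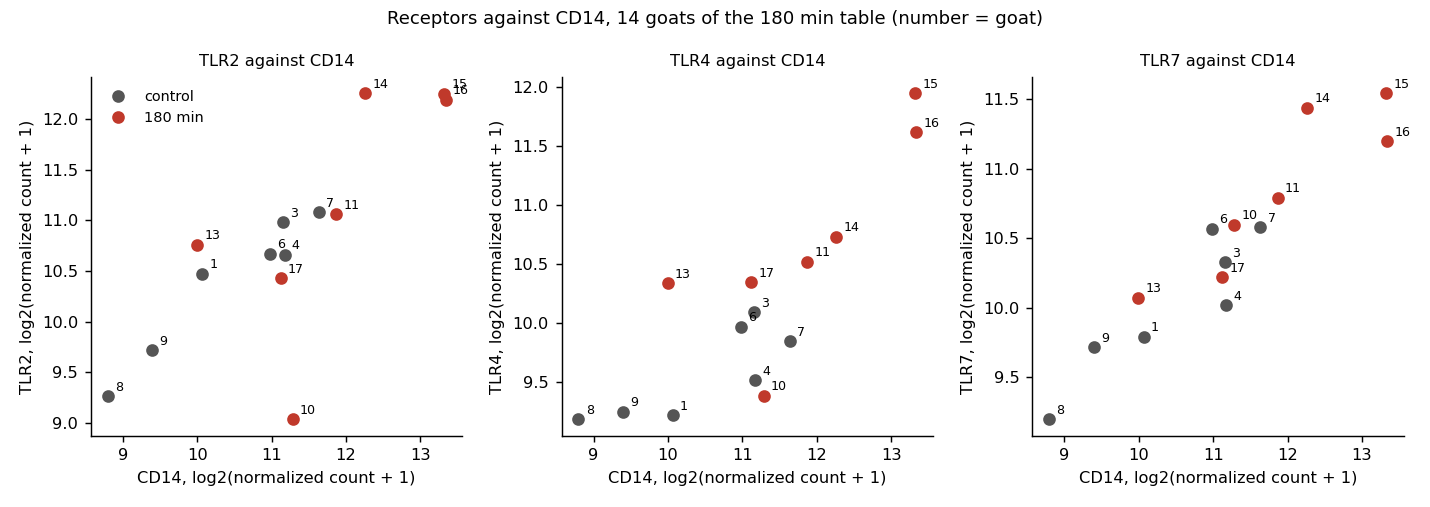
Each receptor (vertical axis) against *CD14* (horizontal axis), both as log2(normalized count + 1), with 1 numbered point per goat, control goats in grey and 180 min goats in red. Within the control goats r is 0.97 for *TLR2*, 0.81 for *TLR4* and 0.92 for *TLR7*, and within the 180 min goats it is 0.69, 0.78 and 0.91.

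The genes most like each member were ranked by Pearson r over the 14 control and 180 min goats, after the mean of each group was removed, among 666 named genes with the same minimum level. For *CD14* the first was *TLR7*, at 0.91, followed by *ADAM19*, *ANKFY1*, *SYK* (a tyrosine kinase of immune receptors) and *ACVR1B*. For *TLR7* they were *ATXN1*, at 0.92, *ANKFY1*, *FAM135A*, *CD14* and *ADAM19*. For *TLR4* they were *CEBPB* (a transcription factor of myeloid cells), at 0.94, *GYG1*, *MARCKS*, *PTAFR* (the receptor of platelet-activating factor) and *CRISPLD2*. For *TLR2* they were *PTAFR*, at 0.93, *KLHL8*, *STEAP4*, *WLS* and *PLEKHG3*. The other receptors stood lower for *CD14*, with *TLR2* at rank 38 and *TLR4* at rank 41. *CD14* itself was at rank 67 for *TLR2* and at rank 78 for *TLR4*. These ranks are descriptions over goats that share libraries, and no test was made of them.

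Of the 91 genes in a list of the Toll-like receptor pathway, 18 were in the 180 min table with the 4 members included. Of the 18, 17 had a positive difference, and limma called 5 as higher and 0 as lower, while 16.6% of all listed genes were called as higher. The median difference of the 18 was 1.12, against 0.68 over the table. The unadjusted limma p was under 0.05 in 12 with a positive difference and in 1 with a negative difference, against 62.4% of the table. The latter, *CD180*, was called as lower in edgeR with TMM and in DESeq2. The count called as higher ran from 2 to 12 over the alternative settings and was 4 without goat 10.

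At the receptor level the co-receptor *LY96*, which encodes the MD-2 protein that binds lipopolysaccharide with TLR4, was at 1075 ± 334 normalized counts after 180 min and 632 ± 306 in control goats (SD, n = 7 each; limma adjusted p = 0.0601). *CD180*, a relative of the receptors found mainly on B cells, had the only negative difference, -0.90 on the log2 scale (limma adjusted p = 0.0734), or -0.56 without goat 10. *TIRAP*, the adaptor that recruits MyD88 to TLR2 and TLR4, was at 258 ± 176 and 72.2 ± 52.1 (SD, n = 7 each), a log2 difference of 2.41 (limma adjusted p = 0.0618), or 1.53 without control goat 9, with 1.06 to 2.89 over the 9 other settings, 3 of which called it. The log2 difference of *LY96*, 0.86, fell to 0.38 in edgeR with TMM and in DESeq2, and 5 of 9 other settings called it.

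Of the kinases, *MAPK14*, which encodes p38-alpha, rose by 1.28 on the log2 scale (limma adjusted p = 0.0353) and *MAPK13*, a related p38 kinase, rose by 1.26 (limma adjusted p = 0.0491). The call of *MAPK14* was kept in 8 of the 14 fits that left out 1 goat and in 9 of 9 other settings, and that of *MAPK13* in 2 of 14 and 5 of 9. Of the transcription factors, *IRF3* had a difference of 1.05 (limma adjusted p = 0.0618) and *FOS* of 0.71 (limma adjusted p = 0.265), and neither was called. Over 9 other settings *IRF3* was called in 3, with values of 0.61 to 1.12, and *FOS* in 0. The difference of *FOS* was 1.14 without goat 10, 0.35 without goat 15 and 1.27 in edgeR with the deposited size factors. Of the inhibitors, *TNIP1* had a difference of 1.13, *SOCS3* of 0.78 and *DUSP1* of 0.45, and none was called. The difference of *DUSP1* was 1.04 without goat 10 and 0.03 without goat 15, and 0 of 9 other settings called it. *TNIP1* was called in 5 of 9 other settings, and its values over them ran from 0.71 to 1.19. *SOCS3* was called in 1 of 9, edgeR with the deposited size factors, at 1.18, and was at 0.50 without goat 15 and 0.51 without goat 16.

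Of the genes that Toll-like receptor signals induce, *PTX3*, a soluble pattern recognition protein, rose the most of the pathway list. It ran from 1804 to 58703 normalized counts after 180 min and from 69.0 to 1100 in control goats, a log2 difference of 5.51 (limma adjusted p = 0.00375), and it was called in all 14 fits that left out 1 goat and in 9 of 9 other settings. *IL10*, an anti-inflammatory cytokine, rose by 2.76 on the log2 scale from low counts, at 31.0 ± 15.3 against 7.36 ± 8.71 (SD, n = 7 each; limma adjusted p = 0.0393). At such counts the value turned on the pseudocount and scale, from 0.78 on FPKM to 4.21 with a pseudocount of 0.1, and the call of *IL10* was kept in 5 of 9 other settings and in 8 of 14 fits that left out 1 goat. *CXCL8*, a neutrophil chemokine, had a difference of 2.89 (limma adjusted p = 0.0549), with 0.84 to 3.85 over the 9 other settings, 3 of which called it. *IL12B* had normalized counts of 0 to 72.7 after 180 min and 0 to 2.25 in control goats, and was not called. Its log2 difference of 1.42 fell to 0.68 without goat 11 and ran from 0.18 on FPKM to 4.46 in edgeR with the deposited size factors, the only 1 of 8 other settings that called it.

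After 30 min, 13 of the 91 pathway genes were listed, 10 with a positive and 3 with a negative difference, and limma called 3 as higher and 0 as lower. Of all 430 genes listed for 30 min, 127 had a positive difference. The unadjusted limma p was under 0.05 in 9 of the 10 and 1 of the 3, against 46% of all listed genes, and edgeR and DESeq2 also called 0 as lower. Over all genes listed for 30 min, 1.86% were called as higher and 0.233% as lower, and the median difference was -0.92. *TLR4* was the only receptor listed, and no co-receptor or adaptor was. The called genes were the inhibitors *NFKBIA*, which encodes IkB-alpha, and *SOCS1*, and the target *PTX3*.

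*NFKBIA* rose by 1.68 on the log2 scale (limma adjusted p = 0.0209), from 754 ± 151 normalized counts (SD, n = 7) to 2445 ± 741 (SD, n = 4). *SOCS1* rose by 2.56 (limma adjusted p = 0.0209) and *PTX3* by 3.82 (limma adjusted p = 0.0393). Of the 11 fits that left out 1 goat, 8 kept the call of *NFKBIA*, 9 that of *SOCS1* and 5 that of *PTX3*, and all 3 were called in 9 of 9 other settings. *FOS* had a difference of 1.34, *ICAM1*, an adhesion molecule, of 1.24, *DUSP1* of 1.13 and *CXCL8* of 3.79 (1.35 on FPKM), and none of these was called. In the 9 other settings *FOS*, *ICAM1* and *DUSP1* were each called in 6 and *CXCL8* in 4, and centring raised the differences of *FOS* to 2.03, *ICAM1* to 1.93 and *DUSP1* to 1.82. The negative differences were those of *TNF*, at -2.43, *TNIP3*, at -2.17, and *MAPK12*, at -0.90, and none was called. These sizes were not stable, since without goat 24 the difference of *TNF* was -1.01 and that of *TNIP3* -1.43, while *TNIP3* was at -0.36 on FPKM and *MAPK12* at -0.21 with centring. *SOCS3* and *JUN* were also listed with positive differences.

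**Figure D5:**
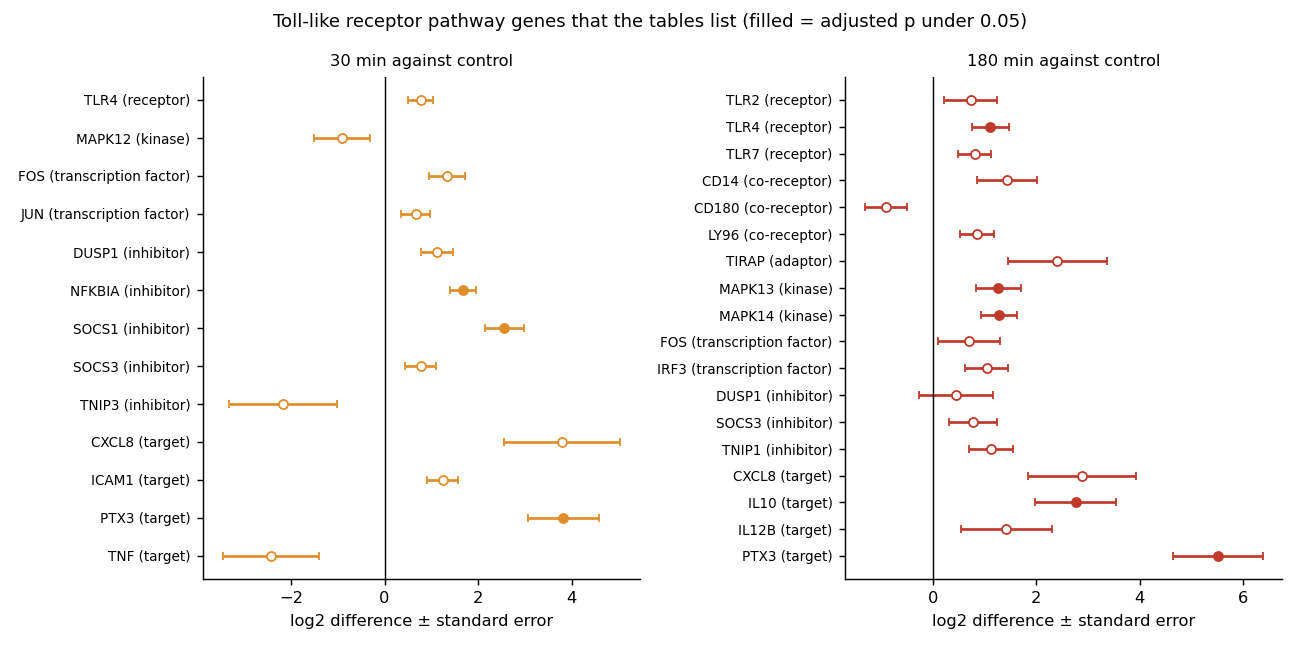
Log2 difference ± standard error of every listed gene of the pathway list in the 30 min (left) and 180 min (right) comparisons, with the class of each gene in parentheses and filled points for genes called by limma. In the 180 min comparison 17 of 18 listed genes have a positive difference, and 5 are called.

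The make-up of the blood is part of each measurement. In bulk blood, a change in the number of cells of a type and a change in the RNA of each cell cannot be told apart. Of 20 neutrophil markers, 8 were in the 180 min table, all with a positive difference and 5 called as higher. Of all 1247 listed genes, 741 had a positive difference, and 16.6% were called as higher and 7.14% as lower. Their summed normalized count was 33162 to 103746 in control goats and 91094 to 199414 after 180 min, and 1 of the 8 was at 0 in at least 1 goat. Of 14 monocyte markers, 3 were listed (*CLEC4E*, *CD163* and *CSF1R*) and all 3 rose. Their sum was 2830 to 7512 in control goats and 8595 to 23180 after 180 min, without overlap, and none of the 3 was at 0 in any goat. Groups were free of overlap in 3.05% of all genes listed for 180 min. The listed markers of each cell type had been chosen by their p on these same goats, which favours a separation of their sums. Markers that were not listed are not in the sums.

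Goats 15 and 16, the highest in *CD14*, had the highest monocyte sums, at 23180 and 15999. The order did not hold for all goats. Goat 14, next in *CD14* at 4909, had a monocyte sum of 10547, below those of goats 10 and 11. Control goat 4 had *CD14* at 2310 and a monocyte sum of 3169, and control goat 9 had 671 and 6160. Goat 10 had the highest neutrophil sum, 199414, and the lowest *TLR2* and *TLR4* of the transported goats. Of 18 T cell markers, 6 were listed, all with a negative difference and 3 called as lower, and their sum was 8064 to 15344 in control goats and 4449 to 9019 after 180 min. Of the other lists, 1 B cell marker (*MS4A1*) had a negative difference, at 3759 to 5196 in control goats and 1635 to 4769 after 180 min, and was not called. The NK cell marker *NKG7* rose, with a range of 1053 to 2252 in control goats and of 1992 to 3305 after 180 min. The platelet marker *GP1BB* was at 20030 in goat 10, against at most 3269 in any other goat, and was not called. The part of these shifts in the differences of *TLR2*, *TLR4*, *TLR7* and *CD14* was not tested.

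For 30 min, 0 of the 14 monocyte markers were listed. Of 12 B cell markers, 5 were listed, all with a negative difference, 0 called by limma and 0 with an unadjusted p under 0.05. Of all 430 genes listed for 30 min, 303 had a negative difference, 0.233% were called as lower and 46% had an unadjusted limma p under 0.05. The summed normalized count of the 5 markers was 8975 to 28768 in control goats and 8570 to 12061 after 30 min. The part of these B cell markers in the 30 min difference of *TLR4* was likewise not tested.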

How the data were processed

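Blood RNA libraries of 18 goats, 1 per goat, were analysed. Reads had been cleaned with fastp and mapped with HISAT2 by the authors, and the genome build and counting tool are not given in the sources used here. The deposited counts are whole reads per gene. The deposited normalized counts, the main signal used, are those counts divided by the size factor the authors computed for each goat in each comparison. The deposited FPKM divide the counts by gene length and library size. The deposited log2 fold changes and p-values are the authors' DESeq2 results, and the p-values were used only to check that each listed gene was under 0.05.

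Normalized counts were tested as log2(value + 1) with limma 3.58.1 in R 4.3.3, with Benjamini-Hochberg adjustment over all listed genes of a table, and each member by exact two-sided permutation tests over goats in Python 3.11.15. Genes were called at an adjusted p under 0.05. Goats are separate animals, with different numbers in each group. The genes named are the 4 members, the listed genes of the pathway list, with values for receptors, co-receptors, adaptors and up to 10 others with the largest difference, and the 5 genes most like each member. The members and lists were chosen with earlier results of these data known. Alternatives were pseudocounts of 0.1 and 10, a minimum mean of 10, FPKM, centring on the median of listed genes, a variance trend, edgeR 4.0.16, DESeq2 1.42.0, Mann-Whitney and Spearman tests, and leaving out each goat in turn. On simulated counts with a log2 fold of 2, limma recovered 188 of 200 changed genes for the 30 min comparison (430 genes) and 192 of 200 for the 180 min comparison (1247 genes). It also called 1 of 230 and 12 of 1047 unchanged genes. That fold lies above the difference of every member, so the recovery does not describe them. The simulation also gave all genes the same dispersion and chose none by p. Its calls of unchanged genes therefore do not give the rate of false calls among the listed genes. The neutrophil markers of the 30 min comparison are not reported here.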

Additional observations from a re-analysis of the deposited data

How the results depend on the processing

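No direction reversed among 910 alternative values of the members, pathway genes, tests and correlations, and 754 kept their side of the threshold. The cause of the shifts that follow was not tested. The median difference of the listed genes, 0.68 after 180 min and -0.92 after 30 min, was 0.45 and -0.36 on FPKM, 0.49 and -0.23 with each goat centred on the median level of its listed genes, 0.27 and -0.88 in edgeR with TMM, and 0.32 and -0.75 in DESeq2. *TLR4* after 30 min became a call on FPKM (0.77), with centring (1.46) and in DESeq2 (0.99). *TLR4* after 180 min lost its call with a pseudocount of 0.1 (1.12), with centring (0.93) and in edgeR with TMM (0.83), and ran from 0.91 to 1.34 without single goats. *TLR7* became a call with a pseudocount of 10 (0.80), a minimum mean of 10 (0.81), FPKM (0.79), edgeR with the deposited size factors (0.84) and a variance trend (0.81), stayed no call at 0.32 in edgeR with TMM, 0.40 in DESeq2 and 0.62 with centring, and ran from 0.67 to 0.94 without single goats. *CD14* became a call on FPKM (1.46) and in edgeR with the deposited size factors (1.55), and ran from 1.15 to 1.74 without single goats. Its exact permutation p was 0.0530 in the exact Mann-Whitney form, 0.0571 with centring and 0.0105 to 0.0746 without single goats, and that of *TLR2* was 0.0344 to 0.341.

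The 9 genes called for 30 min became 16 with a pseudocount of 10, 38 on FPKM, 121 with centring, 23 in edgeR with the deposited size factors, 17 with TMM, 129 in DESeq2, 19 with a trend and 0 to 21 without single goats, and the 3 pathway genes called as higher became 5, 8, 10, 6, 5, 9, 6 and 0 to 4. The 296 genes called for 180 min became 171 with a pseudocount of 0.1, 493 on FPKM, 667 in edgeR with the deposited size factors, 503 with TMM, 631 in DESeq2 and 11 to 349 without single goats. The 5 pathway genes called as higher became 2 with a pseudocount of 0.1, 11 with one of 10, 9 with the minimum mean, 11 on FPKM, 3 with centring, 12 in edgeR with the deposited size factors, 2 with TMM, 3 in DESeq2, 9 with a trend and 1 to 7 without single goats, and the count called as lower became 1 with TMM and 1 in DESeq2.

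Without the 2 farthest goats, the control r was 0.85 for *CD14* and *TLR2*, 0.75 for *CD14* and *TLR7*, 0.72 for *TLR2* and *TLR7* and 0.92 for *TLR4* and *TLR7*, and the 180 min r was 0.92 for *CD14* and *TLR7* and 0.97 for *TLR2* and *TLR4*, but over 5 goats the smallest exact p is 0.00833 before adjustment, so these say nothing of stability. With centring the control r passed for *CD14* and *TLR4* (0.87) and for *TLR2* and *TLR4* (0.84). Spearman's rho passed for *TLR2* and *TLR4* in control goats (0.86) and, after 180 min, for *CD14* and *TLR4* (0.86), *TLR2* and *TLR7* (0.82) and *TLR4* and *TLR7* (0.86). Without single goats the control r was 0.84 to 0.96 for *CD14* and *TLR7*, 0.75 to 0.89 for *TLR2* and *TLR4*, 0.78 to 0.94 for *TLR2* and *TLR7* and 0.85 to 0.93 for *TLR4* and *TLR7*. The 180 min r was 0.68 to 0.92 for *CD14* and *TLR4*, 0.86 to 0.96 for *CD14* and *TLR7*, 0.80 to 0.98 for *TLR2* and *TLR4* and 0.67 to 0.95 for *TLR2* and *TLR7*. No paired analysis was possible because the groups hold different goats with different numbers. The number of goats limits the precision to the intervals given.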
